A study of Mus musculus with 3 samples.

Results

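The regions described here are the Runx1-bound stretches of mouse spinal cord chromatin that lay 1 to 3 kb from an annotated transcription start, called promoter-flanking below. They were the rows that the authors' annotation placed in its promoter bands of 1 to 2 kb and 2 to 3 kb. The choice used the position alone and no binding value. There were 21 such regions of 451 in replicate 1, 177 of 1641 in replicate 2 and 1176 of 13194 in replicate 3, which is 1374 of 15286 over the 3 lists. The sign of the distance split them into 9, 61 and 391 regions upstream and 12, 116 and 785 regions downstream of the start. In each list it was also recorded whether the same gene symbol had a region within 1 kb of a start, here called a companion.

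Runx1 binding was mapped by ChIP-seq, chromatin immunoprecipitation with sequencing, in which an antibody enriches the DNA bound by a protein. All 3 replicates belonged to 1 group, spinal cord of male C57BL/6J mice aged 8 to 10 weeks. No genotype or treatment was compared. Each immunoprecipitation used about 10 µg of chromatin from 10 pooled cords and 9 µg of a rabbit polyclonal Runx1 antibody, so no value belongs to a single mouse. The cords were dissociated and cleared of debris, and no sort for 1 cell type is described, so the chromatin is that of mixed cord cells. Replicate 3 was placed by its title, as its tissue field named the antibody.

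RUNX1 is a DNA-binding factor that pairs with CBFB and reads a short core motif, searched here only as TGTGGT. It is known best for its part in blood and myeloid cells, the lineage to which microglia belong. Promoter-flanking DNA lies outside the core promoter, where the transcription machinery assembles. It holds the first intron or the nearest upstream sequence of many genes, and enhancers and alternative starts are often found there. A flanking region can therefore hold the start of a second transcript that the annotation credits to another gene.

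The sequence beneath a flanking region was available where a RefSeq promoter window, 250 bases before to 50 bases after a gene's start, overlapped it. This was so for 0 regions of replicate 1, 6 of replicate 2 and 15 of replicate 3. The strongest summit, the point of highest signal, fell inside the window in 0, 2 and 2 of them. Those 4 windows are shown because they are the only flanking summits with sequence here. None belonged to the gene that the authors' annotation had assigned. They are RefSeq sequences on GRCm38.p6, 5′ to 3′ on the strand of the gene named, with any TGTGGT, or ACCACA on the other strand, in capitals.
Gm45972 (replicate 3 region of Calm3, a calmodulin gene; chr7:16921423-16921722, plus strand): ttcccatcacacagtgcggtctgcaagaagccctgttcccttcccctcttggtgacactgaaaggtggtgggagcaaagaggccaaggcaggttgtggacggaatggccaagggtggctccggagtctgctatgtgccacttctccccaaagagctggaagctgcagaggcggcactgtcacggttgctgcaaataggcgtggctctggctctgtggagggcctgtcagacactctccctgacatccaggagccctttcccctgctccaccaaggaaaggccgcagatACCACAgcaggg
9430078G10Rik (replicate 3 region of Kdm2a, a histone demethylase gene; chr19:4395634-4395933, plus strand): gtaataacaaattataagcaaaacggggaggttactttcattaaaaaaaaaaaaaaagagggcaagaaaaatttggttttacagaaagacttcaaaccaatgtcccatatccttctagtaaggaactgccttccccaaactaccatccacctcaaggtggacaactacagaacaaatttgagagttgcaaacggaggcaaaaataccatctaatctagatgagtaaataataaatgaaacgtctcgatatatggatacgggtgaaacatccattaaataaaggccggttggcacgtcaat
Gm3134 (replicate 2 region of Sall1, a zinc-finger gene of microglia and kidney; chr8:89040993-89041292, plus strand): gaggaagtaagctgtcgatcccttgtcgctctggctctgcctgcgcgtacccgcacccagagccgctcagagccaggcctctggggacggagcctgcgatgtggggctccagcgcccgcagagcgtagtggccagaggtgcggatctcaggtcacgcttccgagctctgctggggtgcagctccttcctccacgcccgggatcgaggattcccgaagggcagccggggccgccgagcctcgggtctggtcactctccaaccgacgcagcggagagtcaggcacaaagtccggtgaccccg
Gm32703 (replicate 2 region of Pde4d, a cAMP phosphodiesterase gene; chr13:109440877-109441176, minus strand): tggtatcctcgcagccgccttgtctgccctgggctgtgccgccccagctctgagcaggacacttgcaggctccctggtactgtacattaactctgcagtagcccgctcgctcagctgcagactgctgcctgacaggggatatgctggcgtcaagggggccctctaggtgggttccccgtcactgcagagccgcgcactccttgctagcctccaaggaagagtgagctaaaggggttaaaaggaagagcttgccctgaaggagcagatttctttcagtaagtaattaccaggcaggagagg
Of these windows Gm45972 held 1 match to TGTGGT on either strand, at chr7:16921711-16921716. It lay outside the edge of the flanking region, which ended at 16921699. The other 3 windows held none. Variants of the motif were not searched, and the variant TGCGGT stands near the 5′ end of the Gm45972 window, inside the flanking region. The 6-letter motif stood on either strand in 2 of the 22 windows under flanking regions (9.09%), against 5506 of all 32851 windows of the same length (16.8%). The other window with a match was that of Cpeb4, a gene for an RNA-binding translation regulator. It is shown because it held the motif and the flanking region there overlapped its own gene's promoter. In replicate 3 the same overlap was found at 3 regions, those of 2310034G01Rik, Psmc2 and Dlx6os1. Their windows held no match and are not shown.
Cpeb4 (replicate 2; chr11:31870690-31870989, plus strand): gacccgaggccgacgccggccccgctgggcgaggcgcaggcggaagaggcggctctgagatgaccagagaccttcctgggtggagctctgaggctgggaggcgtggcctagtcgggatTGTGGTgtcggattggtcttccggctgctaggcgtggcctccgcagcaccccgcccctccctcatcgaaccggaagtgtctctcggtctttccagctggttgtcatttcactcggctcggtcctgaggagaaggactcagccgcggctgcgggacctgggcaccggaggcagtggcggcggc
The region, chr11:31870941-31871204, covered the last 49 bases of this window at 4.02-fold over background, and the motif at chr11:31870808-31870813 lay outside it. The authors' table placed it upstream at -1007 bp, measured from another start of Cpeb4 than the one in RefSeq's window.

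Flanking regions made up a small part of each list. Their share was 4.66% (95% Wilson interval 3.07 to 7.01) in replicate 1, 10.8% (9.38 to 12.4) in replicate 2 and 8.91% (8.44 to 9.41) in replicate 3. The mean was 8.12% ± 3.14 (SD, n = 3). In the lists as deposited, replicate 1 lay below the other 2, and its interval overlapped neither. In equal lists of the 451 regions of lowest q the shares were 4.66%, 9.31% and 3.99%, so replicate 3 was lowest there. The intervals cover counting error only, and read depth is unknown. The band of 1 to 2 kb held 18, 128 and 736 regions and the band of 2 to 3 kb held 3, 49 and 440. The median distance from the start was 1684, 1651 and 1724 bp.

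The distance runs from the start to the nearest edge of the region. The strongest summit of 1, 11 and 131 flanking regions therefore lay more than 3 kb from the start, and no summit lay within 1 kb. The limits cut through a continuous series. In replicate 3 the innermost member was assigned to Gm23854 at -1001 bp (4.39-fold) and the nearest region inside the limit to Gm14243 at -1000 bp (3.87-fold). At the outer limit Srgap2 was a member at 2993 bp (3.55-fold) and Vis1 was not at 3004 bp (4.83-fold). In replicate 1 these 4 places were held by D030034A15Rik at 1044 bp (4.40-fold), Scrt1 at 848 bp (4.65-fold), Zcchc2 at 2955 bp (4.53-fold) and 9530059O14Rik at -3197 bp (7.22-fold). In replicate 2 they were held by Cpeb4 at -1007 bp (4.02-fold), Arhgef2 at 997 bp (2.96-fold), Gm29540 at 2955 bp (2.99-fold) and Zcchc2 at 3082 bp (4.63-fold). Zcchc2 thus crossed the outer limit between replicates.

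Downstream flanking regions outnumbered upstream ones in all 3 replicates. The downstream share was 57.1% (36.6 to 75.5), 65.5% (58.3 to 72.1) and 66.8% (64.0 to 69.4) in replicates 1, 2 and 3. Downstream minus upstream, the difference was 14.3, 31.1 and 33.5 percentage points, with a mean of 26.3 ± 10.5 (SD, n = 3). A two-sided exact sign-flip permutation test over the 3 replicates gave p = 0.25, which is the smallest p that 3 replicates allow. Of the bases 1 to 3 kb from the nearest RefSeq start, 52.3% lie downstream, though the authors' table can use other starts, as at Cpeb4. That value lay below the intervals of replicates 2 and 3 and inside that of replicate 1. A lean downstream in replicates 2 and 3 was not particular to flanking regions. The downstream share was 46.7%, 61.8% and 62.5% of intron regions and 36.4%, 43.2% and 43.3% of distal intergenic regions. Over all regions outside 1 kb it was 48.7%, 60.1% and 59.4%. In equal lists of the 451 regions of lowest q the differences were 14.3, 33.3 and -22.2 points (mean 8.47), so replicate 3 had more upstream than downstream regions there. At 2 to 3 kb alone they were -33.3, 6.12 and 29.5 points (mean 0.778).

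In replicates 2 and 3 the excess downstream began beyond 500 bp, as the plot of counts by distance shows. In replicate 3 the first 500 bp next to the start held 824 regions downstream and 886 upstream, not counting those that covered the start. The next 500 bp held 537 downstream and 245 upstream. In replicate 2 the first 500 bp held 140 downstream and 161 upstream, and the next 67 and 38. Replicate 1 did not show this, with 44 and 54, then 9 and 10. From 1000 to 1500 bp of replicate 3 there were 310 downstream and 125 upstream, and from 2500 to 3000 bp there were 147 and 73. By band, 500 regions lay downstream and 236 upstream at 1 to 2 kb in replicate 3, and 285 and 155 at 2 to 3 kb. In replicate 2 the counts were 90 and 38 at 1 to 2 kb and 26 and 23 at 2 to 3 kb. In replicate 1 they were 11 and 7, then 1 and 2, so the outer band of replicate 1 went the other way with 3 regions.

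**Figure D1:**
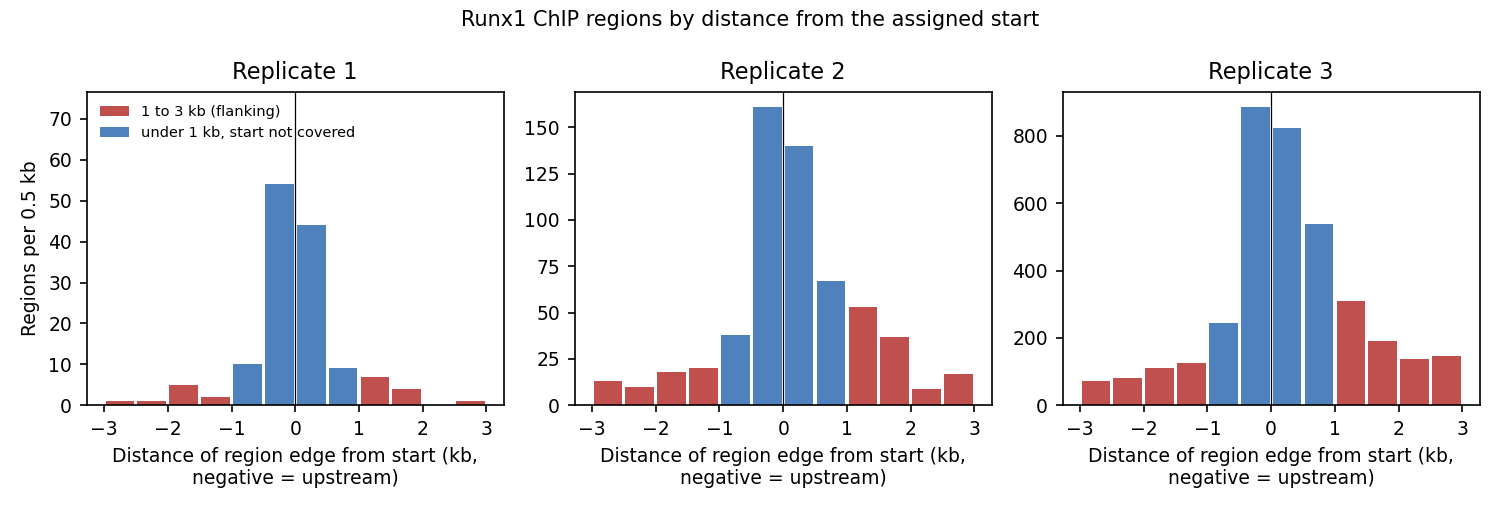
Number of regions per 0.5 kb (y axis) against the signed distance in kb from the assigned start to the nearest region edge (x axis, negative is upstream), one panel per replicate; flanking regions are red, regions under 1 kb that do not cover the start are blue, and regions over the start are not drawn. In replicate 3 the downstream bars decline more slowly, with 310 regions at 1000 to 1500 bp downstream against 125 upstream.

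Flanking regions were about as strong as other regions of the same list. Strength is the deposited ratio of signal to background at a region's highest summit, a fold that describes regions within 1 list only. The median was 4.84-fold in flanking regions and 4.87-fold in regions within 1 kb in replicate 1. It was 3.96-fold in flanking regions and 4.00-fold within 1 kb in replicate 2. In replicate 3 it was 3.64-fold in flanking regions and 3.84-fold within 1 kb. The difference of median log2 folds was -0.01, -0.01 and -0.08, negative in 3 of 3 replicates, with a mean of -0.03 ± 0.04 (SD, n = 3; exact sign-flip permutation p = 0.25, two-sided). This sign did not hold under every limit. For q of 1e-05 or lower the differences were -0.0914, 0.01 and 0.0227, and in the equal lists -0.00739, -0.0102 and 0.016. For a fold of 4 or more they stayed negative, at -0.0859, -0.00134 and -0.0677. Intron regions had medians of 4.50, 4.03 and 3.78 and distal intergenic regions 4.91, 4.15 and 3.91. In replicate 3, regions within 1 kb that did not cover the start had medians of 3.51-fold downstream and 3.64-fold upstream, so the flanking median lay at the level of these. Between the flanking sides the medians were 3.58-fold downstream and 3.80-fold upstream in replicate 3, 3.86 and 4.05 in replicate 2, and 4.91 and 4.65 in replicate 1, where the order was the other way.

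Flanking regions had a smaller median width than regions within 1 kb in each list as deposited. In replicate 1 the median width was 288 bp in flanking regions and 337 bp within 1 kb. It was 415 bp in flanking regions and 432.5 bp within 1 kb in replicate 2, and 414 bp in flanking regions and 512 bp within 1 kb in replicate 3. The log2 difference of the medians was -0.23, -0.06 and -0.31 (mean -0.20 ± 0.13, SD, n = 3; exact sign-flip permutation p = 0.25, two-sided). In replicate 2 the direction turned, with flanking regions wider, at 0.237 for q of 1e-05 or lower, 0.0564 for a fold of 4 or more and 0.24 in the equal lists. The means over replicates were then -0.0252, -0.0993 and -0.0911. Regions within 1 kb that did not cover the start were about as narrow as flanking ones. Their medians were 282, 395 and 365 bp upstream and 305, 409 and 398 bp downstream in replicates 1, 2 and 3. Intron medians were 326, 389 and 396 bp and distal intergenic medians 365, 392 and 418 bp. A single summit was present in 100%, 85.3% and 75.7% of flanking regions, against 91.7%, 85.8% and 66.6% of regions within 1 kb. Within 1 kb but off the start, replicate 3 had 82.2% upstream and 75.6% downstream. In all, flanking regions covered 7.50, 105 and 650 kb.

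**Figure D2:**
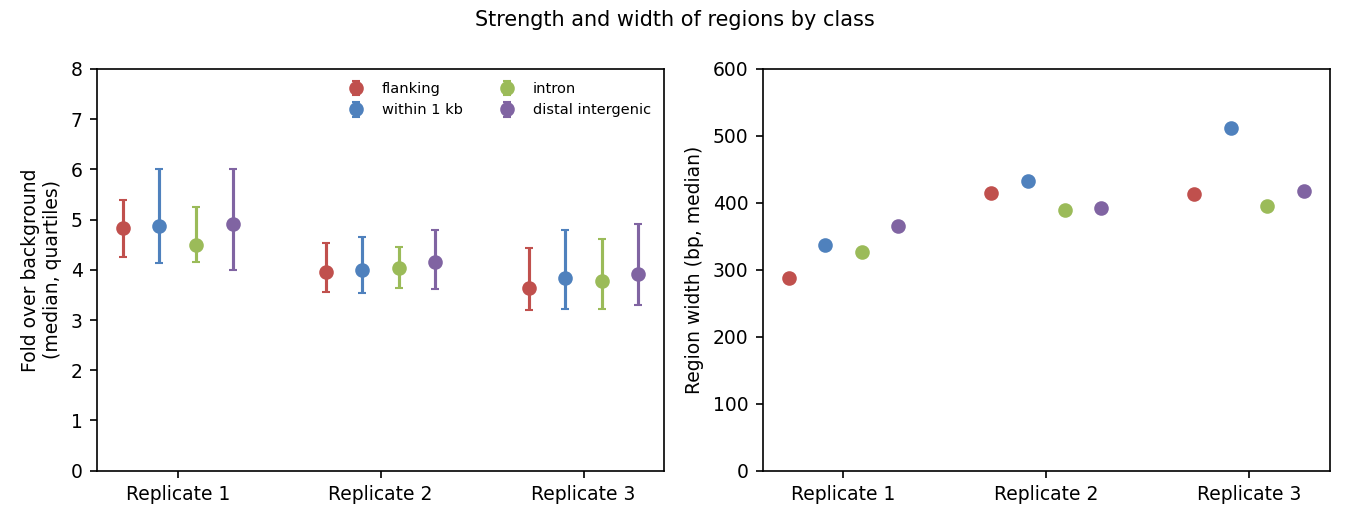
Left, fold over background at the strongest summit (median, with bars for the quartiles) and right, median region width in bp, for flanking regions, regions within 1 kb, intron and distal intergenic regions in each replicate. The flanking medians of 4.84, 3.96 and 3.64-fold lie close to those of the other classes, while their widths of 288, 415 and 414 bp lie below those within 1 kb.

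Most flanking regions of the 2 shorter lists were found again in the long list, and few of the long list were found again. An overlap of at least 1 bp with any region of another replicate was present for 20 of 21 flanking regions in replicate 1 (95.2%), 165 of 177 in replicate 2 (93.2%) and 76 of 1176 in replicate 3 (6.46%). Over all classes the shares were 95.3%, 92.3% and 11.7%. Regions within 1 kb had 95.7%, 92.7% and 14.6%. Flanking minus within 1 kb, the difference was -0.47, 0.56 and -8.12 points (mean -2.68 ± 4.74, SD, n = 3; exact sign-flip permutation p = 0.75, two-sided). It was -9.87 points without replicate 3, -1.41 without replicate 2, -11.8 where 50% of both regions had to overlap, -9.97 for summits within 200 bp and -14.0 in the equal lists. In replicate 3 the 76 shared flanking regions had a median of 5.45-fold and 846 bp, against 3.59-fold and 396 bp for the 1100 that no other list held. The share found again in replicate 3 is bounded by the lengths of the other lists, which held 451 and 1641 regions. All flanking regions of replicates 1 and 2 that were found again overlapped a region of replicate 3. Between replicates 1 and 2, an overlap was present for 10 of 21 (47.6%) and 10 of 177 (5.65%). Regions within 1 kb had 55.8% and 17.2% between these 2 lists, and all classes 55.2% and 14.8%.

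A locus often changed its class from one list to the next. Of the 177 flanking regions of replicate 2, 61 (34.5%) overlapped a flanking region of replicate 3. A larger number, 103 (58.2%, 50.8 to 65.2), overlapped a region that replicate 3 placed within 1 kb. Of those 103 the median width was 4065 bp in replicate 3 and 513 bp in replicate 2. In the 61 that kept the class it was 853 bp in replicate 3 and 397 bp in replicate 2. The reverse was rare, since 1 of 1172 regions within 1 kb in replicate 2 met a flanking region in replicate 3 and 1083 stayed within 1 kb. Of the 21 flanking regions of replicate 1, 15 overlapped a flanking region of replicate 3 and 5 a region within 1 kb. Width of the called region moved with the change of class, and so did the number of regions in the list; their part in it was not tested.

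In replicate 3, 42 flanking regions of replicates 1 and 2 met wider regions that overlapped a RefSeq promoter window of the assigned gene. They came from 34 genes. At Cpeb4 a replicate 2 region already overlapped that window in part. Nfix, a nuclear factor I gene of neural development, had a 570 bp region in replicate 2 (4.54-fold). It lay 1101 bp downstream of the start in the authors' table, and replicate 3 held it as 3795 bp spanning the start. Of the 45 promoter windows overlapped in this way, 4 held the motif as TGTGGT or ACCACA (8.89%), against 16.8% of all windows. A covered Nfix window held it and is shown as an example. It lies nearer to that replicate 2 region than the other Nfix window, chr8:84773361-84773660, which held none. The 1101 bp were measured from a start in that other window, so the window shown belongs to another start of Nfix.
Nfix (chr8:84772826-84773125, minus strand, in capitals the core motif): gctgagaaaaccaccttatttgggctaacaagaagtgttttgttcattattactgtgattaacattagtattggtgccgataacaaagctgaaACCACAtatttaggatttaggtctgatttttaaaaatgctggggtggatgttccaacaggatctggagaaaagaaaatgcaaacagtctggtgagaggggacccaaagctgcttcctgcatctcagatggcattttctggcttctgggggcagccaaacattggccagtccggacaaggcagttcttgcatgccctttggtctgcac
Ermn, a myelin sheath protein gene, had 2 such regions in replicate 2, of 449 bp (4.93-fold) and 636 bp (4.56-fold), and replicate 3 had 1 of 6711 bp. Sox2, a neural progenitor factor, had 1 of 1528 bp at 4.92-fold that lay within 21957 bp in replicate 3. At Zeb2, a zinc-finger repressor of neural and glial development, the replicate 1 region of 275 bp (3.70-fold) met 5035 bp at 8.32-fold in replicate 2 and 15033 bp at 15.4-fold in replicate 3.

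**Figure D3:**
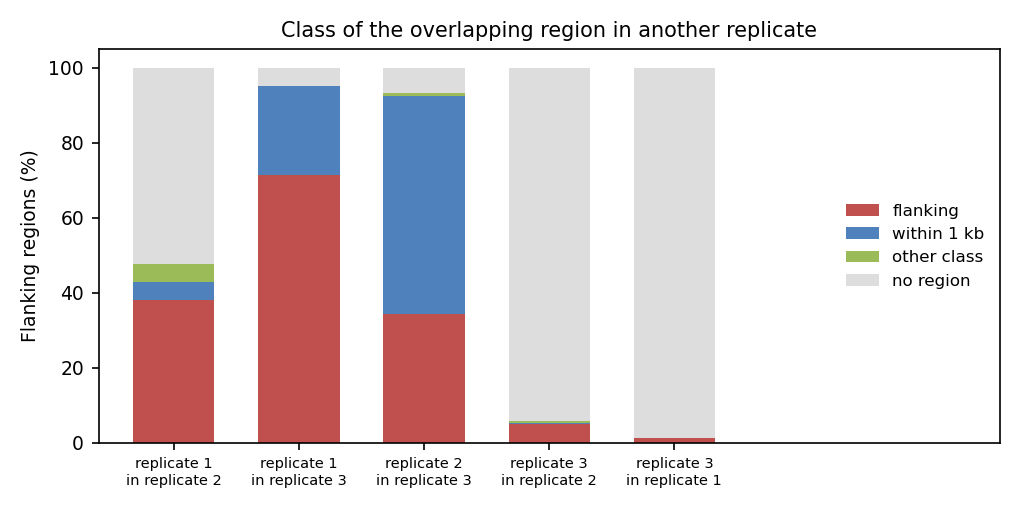
Percent of flanking regions (y axis) of one replicate by the class of the region they overlap in another (x axis), with red for flanking, blue for within 1 kb, green for any other class and grey for no region. Of the replicate 2 flanking regions, 58.2% meet a region within 1 kb in replicate 3 and 34.5% meet a flanking one, while most of replicate 3 has no match in the shorter lists.

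At 6 loci, a flanking region of replicate 1 overlapped flanking regions in both other lists. Among them were Map1b, Ciz1, Angptl6, the lincRNA D030034A15Rik and the antisense RNA Gm44780, and each locus kept its gene and its side in all 3. Map1b, the gene of a microtubule-associated protein of neurons, had 6.20, 3.98 and 4.58-fold at chr13:99514944-99515425 and nearby edges. Its replicate 3 companion was at 2.58-fold. Ciz1, a zinc-finger gene linked to DNA replication, had 4.86, 3.10 and 3.87-fold upstream, with a replicate 3 companion of 2.90-fold. Neither Map1b nor Ciz1 had a companion in replicates 1 and 2. At both genes the flanking region was thus found in more lists than any region at the start, and was the stronger in replicate 3. Angptl6, a secreted angiopoietin-like protein gene, had 3.73, 3.21 and 5.42-fold, D030034A15Rik 5.46, 4.14 and 7.31-fold, and Gm44780 4.84, 4.73 and 5.66-fold. None of these 3 had a companion in any list.

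The strongest flanking region of replicates 1 and 2 belonged to the lincRNA Gm26698. It was chr12:86894487-86895060 in replicate 1, 1919 bp upstream at 10.5-fold, and 7.62-fold in replicate 2. Replicate 3 held it at 14.8-fold in a 2018 bp region within 1 kb. Its percentile of fold within each list was 97.1, 98.9 and 99.9. Mycbp2, a ubiquitin ligase gene of axon growth, had 5.98-fold in replicate 1 and 4.70-fold in replicate 3, with no region in replicate 2. Zfp91, a zinc-finger gene, likewise had 5.38-fold in replicate 1 and 3.54-fold in replicate 3.

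Some of the strongest flanking regions of replicate 2 were also wide. Pou3f3, a POU-homeodomain factor of neural progenitors, had 7.05-fold over 3422 bp (chr1:42698335-42701756). Replicate 3 assigned the same place to the neighbouring noncoding RNA Pantr2, at 15.3-fold over 9604 bp with 22 summits, the widest and strongest flanking region of that list. Its strongest summit lay 8286 bp from the start, so this member reached far beyond the band. Qk, the RNA-binding regulator of myelin mRNAs, had 7.17-fold over 4001 bp in replicate 2. The same place was within 1 kb in replicate 3, and so were those of Trim8 (6.69-fold in replicate 2) and 2810410L24Rik (6.64-fold). Per1, a core gene of the circadian clock, had 6.52-fold in replicate 2 and 9.98-fold in replicate 3. It was downstream at 1613 bp in replicate 2 and upstream at -1002 bp in replicate 3, measured from different starts of the same gene. Of 61 overlapping pairs of flanking regions between replicates 2 and 3, 60 kept the gene and 60 kept the side.

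In replicate 3 the highest folds after Pantr2 were at Hip1 (12.4-fold), an endocytic adaptor gene, Phldb1 (11.1-fold), Insc (10.3-fold), a spindle orientation gene, and Dusp7 (10.3-fold), a MAP kinase phosphatase gene. Hip1 was also flanking in replicate 2, at 5.08-fold. Olig2, the lineage factor of oligodendrocytes, had 5.53-fold over 837 bp in replicate 2 and 8.22-fold over 3271 bp in replicate 3. Coro2b had 5.17-fold in replicate 2 and 7.48-fold in replicate 3, Slc26a1 5.84 and 5.32-fold, and Gm19972 4.88 and 7.06-fold. The widest flanking regions of replicate 3 after Pantr2 were those of 9530052E02Rik (5508 bp), Rhog (3757 bp), Zfp608 (3487 bp) and Gm11737 (3410 bp).

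Flanking regions in the longer lists often stood beside a region of the same gene at the start. A companion was present for 2 of 21 flanking regions in replicate 1 (9.52%, 2.65 to 28.9), 75 of 177 in replicate 2 (42.4%, 35.3 to 49.7) and 803 of 1176 in replicate 3 (68.3%, 65.6 to 70.9). Over all regions outside 1 kb the shares were 8.97%, 30.3% and 48.9%. Intron and distal intergenic regions together had 10.4%, 21.1% and 42.1%. Flanking minus these, the difference was -0.89, 21.3 and 26.2 points, positive in 2 of 3 replicates (mean 15.5 ± 14.4, SD, n = 3; exact sign-flip permutation p = 0.5, two-sided). The mean was 23.7 points without replicate 1, which had 2 cases, and 10.2 without replicate 3. It was 28.2 points where any region within 1 kb of a start and within 10 kb counted, whatever its gene. In equal lists of the 451 regions of lowest q the mean was 9.12. The differences there were -0.893, 22.8 and 5.5 points in replicates 1, 2 and 3. The share was higher in longer lists for each of these classes, and the part of list length in it was not tested.

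The sides differed in replicate 3, where the companion share was 72.4% downstream and 60.1% upstream, with intervals of 69.1 to 75.4 and 55.2 to 64.8. In replicate 2 the shares were 42.2% downstream and 42.6% upstream. In replicate 1 they were 2 of 12 downstream and 0 of 9 upstream, which allows an upstream share of up to 29.9%. The assigned genes differed as well, since protein-coding genes took 81.8% of downstream and 65.5% of upstream flanking regions in replicate 3, 82.8% and 77.0% in replicate 2, and 66.7% and 33.3% in replicate 1. Coding genes made up 88.7% of the regions with a companion and 49.9% of those without in replicate 3.

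**Figure D4:**
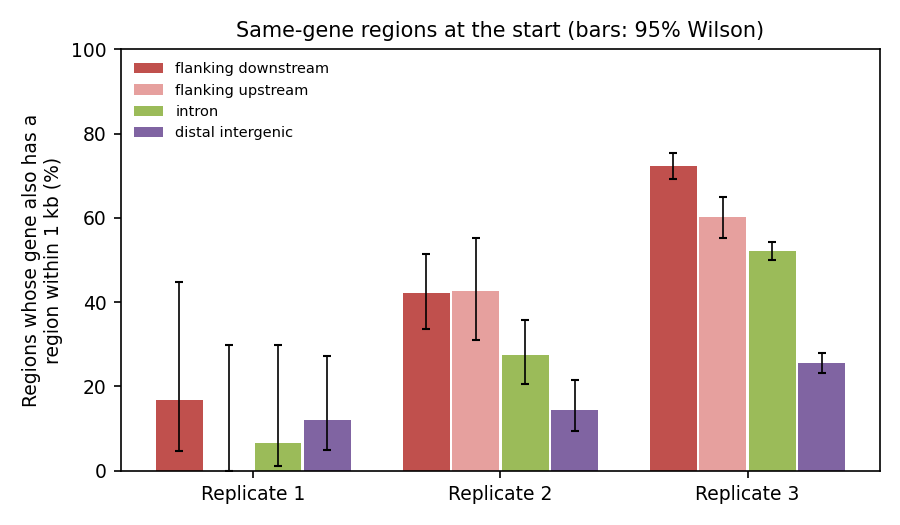
Percent of regions whose gene symbol also has a region within 1 kb of a start (y axis, bars, with 95% Wilson intervals) for flanking regions downstream and upstream, intron and distal intergenic regions in each replicate. In replicate 3 the downstream and upstream flanking shares are 72.4% and 60.1%, above those of the intron and intergenic bars.

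Companions lay close by. The median gap to the nearest companion was 917, 1119 and 1069 bp, and it was over 10 kb for 0, 5 and 81 regions, where the companion sat at another start of the gene. The flanking region was the stronger of the pair in 0 of 2, 36 of 75 and 312 of 803 cases (38.9% in replicate 3). Median folds in replicate 3 were 3.63 for the flanking regions and 4.05 for their companions, and median widths were 423 and 720 bp. The smallest gap between any flanking region and its companion was 214 bp.

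The flanking regions belonged to 20, 155 and 980 genes, of which 19, 141 and 825 had just 1. In replicate 3, 134 genes had 2 and 21 had 3 or more. The noncoding gene 3110039I08Rik had the most, 7 flanking of its 15 regions, between 2.81 and 4.55-fold and spread over 3 upstream and 4 downstream positions. Zeb2 had 6 flanking of its 40 regions, from 3.15 to 5.66-fold, beside a region within 1 kb of 15.4-fold. Hoxb6 had 5 of 7. Mir99ahg, Csrnp3 and Mbnl2 had 4 each. In replicate 2 the most were 5 at Nfib, a nuclear factor I gene of glial development, and none of the 5 had a companion.

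Among 21900 coding genes of RefSeq, 11 had a flanking region in replicate 1, 125 in replicate 2 and 739 in replicate 3, which is 0.0502%, 0.571% and 3.37%. Of the coding genes with any region the shares were 3.36%, 11.2% and 10.9%. The gene lists below are read against these values. A region shows binding and not expression. As to the labelled tissue, a region of any class was present in replicates 1, 2 and 3 at 0, 15 and 28 of 30 oligodendrocyte genes and at 4, 4 and 18 of 28 neuron genes. The counts were 2, 5 and 10 of 19 astrocyte genes, 0, 1 and 4 of 24 homeostatic microglia genes and 0, 0 and 3 of 22 endothelial, mural and meningeal genes. Over all coding genes a region of any class was present at 1.49%, 5.1% and 31.0%, and a region within 1 kb at 1.36%, 4.29% and 27.9%. Genes differ in how many regions they hold: the median over all coding genes with a region in replicate 3 was 1, and over those with a flanking region it was 3.

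Genes of oligodendrocytes and myelin, the insulating sheath of axons, carried flanking regions at the largest share of all genes listed, among the 12 lists, in replicates 2 and 3. Among genes with any region the order was another, with neuron (55.6%) and homeobox genes (55.3%) above them in replicate 3. The count was 0, 8 and 15 of 30 genes in replicates 1, 2 and 3, and in replicate 3 these were 15 of the 28 with any region (53.6%). Their 17 flanking regions in replicate 3 had a median of 3.81-fold, against 3.64-fold for all flanking regions, and 16 had a companion. The list genes had a median of 3 regions each. Olig2 led at 8.22-fold, followed by Mog (7.12-fold), a surface myelin protein gene, and Opalin (5.45-fold), a membrane protein gene of myelinating cells. By gene symbol, 5 of the genes had a flanking region in both replicates 2 and 3, among them Gal3st1, Mbp, Olig1 and Olig2. The places need not be the same, and the replicate 2 flanking region of Gal3st1 overlapped no region of replicate 3. Mbp, the myelin basic protein gene, had 3 flanking regions in replicate 2, from 4.39 to 5.37-fold, and 1 in replicate 3 at 3.47-fold.

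Homeobox and patterning factors, which set positional identity along the cord, had flanking regions at 1, 4 and 21 of 46 genes. In replicate 3 these were 21 of 38 with any region (55.3%), with 39 flanking regions of median 3.73-fold, 37 of them with a companion. Hoxb3 (6.98-fold), Zeb2 (5.66-fold) and Hoxb7 (5.48-fold) led. Many of the Hox members stand side by side in clusters, so a region can lie 1 to 3 kb from one gene and near the next. Neuron genes had 0, 0 and 10 of 28, or 10 of 18 with any region, led by the glutamate receptor gene Gria2 (4.47-fold), the dendritic Map2 (3.64-fold) and the RNA-binding Elavl3 (3.61-fold). The median of their 12 flanking regions was 3.23-fold, below that of all flanking regions.

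In replicates 2 and 3 the flanking counts at microglial genes were of 1 or 2 genes. Over all genes listed, that was a share not below that of all coding genes. Of 24 homeostatic microglia genes, 0, 1 and 1 had a flanking region, and of 24 transcription factors of microglia and macrophages 0, 2 and 1 had one. The gene was Sall1 in both lists, with 4.11-fold downstream in replicate 2 and 3.90-fold upstream in replicate 3, and Bhlhe40, a basic helix-loop-helix repressor, with 4.23-fold in replicate 2. Of the transcription factors, 3, 4 and 15 of 24 had a region of any class, to be read against the 1.49%, 5.1% and 31.0% of all coding genes. Among genes with any region, 2 of 4 and 1 of 15 transcription factors (6.67%) had a flanking one in replicates 2 and 3. For the homeostatic genes it was 1 of 1 and 1 of 4. Over all coding genes with any region the shares were 11.2% and 10.9%. Astrocyte genes had 0, 1 and 2 of 19, namely Nfib (5.31-fold in replicate 2), Nfia (6.40-fold) and the calcium-binding S100b (3.24-fold) in replicate 3. Endothelial, mural and meningeal genes had 0, 0 and 1 of 22, Foxc1 at 3.77-fold.

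For the lysosome, ribosomal and opioid lists the flanking counts were too small to be set apart from the 10.9% of all coding genes with any region. In replicate 3, 27 of 35 lysosome and autophagy genes had a region within 1 kb, and 2 of the 27 with any region (7.41%) had a flanking one, Npc1 (4.39-fold), a cholesterol exporter of lysosomes, and Fnip1 (4.07-fold). Cytosolic ribosomal protein genes had 22 of 30 within 1 kb and 0 flanking. The median number of regions per gene was 1 in both lists. Opioid system and G protein signalling genes had 8 of 25 within 1 kb and 0 flanking in every replicate. RUNX family genes and cofactors had 0, 0 and 4 of 16, among them the Groucho corepressor Tle3 (6.67-fold), Runx1t1 (4.39-fold), known in human leukaemia as a fusion partner of RUNX1, and Ncor1 (3.12-fold). Chromatin regulators had 0, 1 and 3 of 20, among them Arid1b (4.55-fold), a chromatin remodelling subunit gene, and Kdm6b (3.44-fold) in replicate 3 and Tnrc18 (4.21-fold) in replicate 2.

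**Figure D5:**
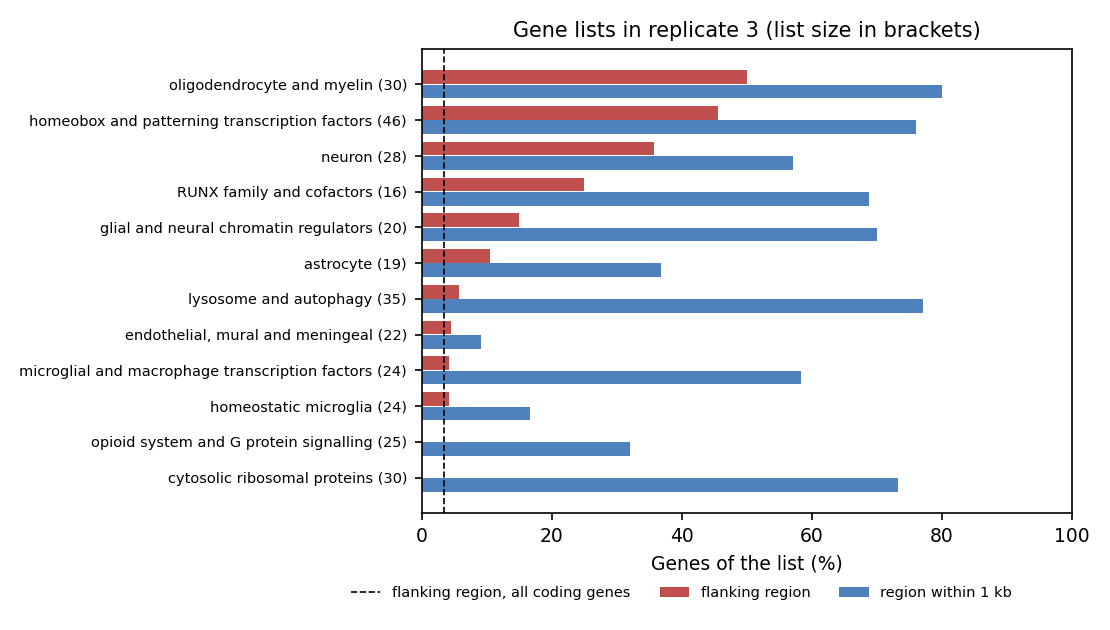
Percent of the genes of each list (x axis) with a flanking region (red) and with a region within 1 kb (blue) in replicate 3, list size in brackets; the dashed line is the 3.37% of all coding genes with a flanking region. The oligodendrocyte list has 15 of 30 genes with a flanking region, and the ribosomal list has 0 of 30, with 22 within 1 kb.

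Noncoding genes took a larger part of flanking regions than of regions within 1 kb. Protein-coding genes made up 52.4%, 80.8% and 76.4% of flanking regions, against 84.5%, 85.9% and 90.0% within 1 kb. Their part was smaller again in intron regions (33.3%, 66.4% and 63.7%) and distal intergenic regions (48.5%, 41.6% and 38.2%). Long intergenic noncoding RNAs were 5, 12 and 69 flanking regions, antisense RNAs 2, 4 and 52, and microRNA genes 0, 2 and 24.

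The 26 flanking regions of microRNA genes came from 21 symbols, of which 10 matched a RefSeq hairpin by position, with 17 mature sequences and 17 different seeds. A microRNA pairs with its targets through the seed, bases 2 to 8, and its annotated start is the start of the hairpin rather than of the longer primary transcript. The mature sequences of the 3 microRNA genes with the highest fold (of miR-346 the 5p arm) and of let-7i, which is conserved widely among animals, are given with the seed in capitals; let-7i was chosen after its values were seen.
mmu-miR-6917-3p: gUCACUUCucuucccaccacag
mmu-miR-1191b-3p: aGACUCACuauguagcccaagc
mmu-miR-1191b-5p: uCAGGCUAcagagcgagaaccu
mmu-miR-346-5p: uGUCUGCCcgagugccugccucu
mmu-let-7i-5p: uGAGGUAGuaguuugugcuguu
Mir6917 on chromosome 10 had the only microRNA flanking region in both replicates 2 and 3, at -2250 bp with 3.42-fold and at -1868 bp with 9.16-fold, and had no companion. Mir1191b had 6.02-fold at 1132 bp, Mir346 5.25-fold at 1545 bp and Mirlet7i 3.51-fold at 1134 bp, each in replicate 3. Mir5114 and Mir8110 had 3 flanking regions each, between 2.70 and 4.74-fold and between 2.95 and 3.70-fold. Those of Mir8110 lay near Sall1 on chromosome 8. Mir125b-2, Mir124a-3 and Mir99b also had 1 each, at 3.55-fold in replicate 2 and 3.51 and 3.59-fold in replicate 3.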

How the data were processed

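Runx1 ChIP-seq regions were analysed for 3 replicates of 1 group. Per the submitters' processing notes, MACS2 2.1.2 and Bowtie2 were used on GRCm38, with SAMtools 1.9, Picard 2.18.26, FastQC and Trimmomatic 0.38. The sources used here give neither read depth nor settings nor the control library. Nothing says which animals the replicates share, so p-values measure the spread between these samples, which may be technical. Regions were called per replicate, and the deposited lists hold for every summit −log10 q, −log10 p, the fold or ratio over background and a score, all from the authors' peak caller. The −log10 q in the deposited lists went down to 2.01, 2.00 and 2.00. The authors' annotated tables add a class, a gene and a distance to the start, which recomputed from the region edges in 100% of regions.

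Regions were counted once with the fold of their strongest summit, and starts are written from 1. Shares have 95% Wilson intervals. Differences between classes were taken within each replicate and tested by a two-sided exact sign-flip permutation over replicates, in 5 tests with no adjustment, since none can pass below 0.25. Coding symbols of flanking regions matched RefSeq (GRCm38.p6) in 100%, 100% and 98.3% of cases. MicroRNAs were matched by position. The members and the 12 gene lists were chosen with earlier results of these data known. Named regions were the 6 of highest fold in each replicate, up to 8 flanking in at least 2 replicates, the 5 widest and the genes with most flanking regions of replicate 3, up to 3 per list, and those nearest the limits; further list genes, microRNAs and changed loci were named after their values were seen. Some genes that this rule names are left out of the text. Alternatives were stricter limits on q and fold, single distance bands, other definitions of overlap, companion and fold, each replicate left out, and equal lists, the last added after seeing the data. The scripts were tested on simulated data. Versions were scipy 1.17.1, pandas 2.3.3, numpy 2.4.6, matplotlib 3.10.9 and Python 3.11.15.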

Additional observations from a re-analysis of the deposited data

How the results depend on the processing

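No mean of the 6 results changed sign in any of the 55 recomputed values, but several moved by more than the SD over replicates. The downstream minus upstream difference was 0.778 points for the 2 to 3 kb band and 8.47 in the equal lists, and the difference in overlap was -14.0 points there; the cause was not tested. The share of flanking regions was 2.33% for the 2 to 3 kb band alone, where fewer regions count by construction. With each replicate left out, the mean share ran from 6.78% to 9.85%, the downstream minus upstream difference from 22.7 to 32.3 points, the log2 fold difference from -0.0457 to -0.0107, the log2 width difference from -0.267 to -0.143, the difference in overlap from -9.87 to -1.41 points and that in companions from 10.2 to 23.7 points. No test with 3 replicates can give a p below 0.25, or with 2 below 0.5, so the tests say nothing about stability. Classes were compared within each replicate, so those differences are already paired by replicate, and with 1 group there was no second group to pair. Read depth was not given, so shares are limited by what each list called, and the 21 regions of replicate 1 limit its shares most.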
